A study of Mus musculus with 15 samples.

Results

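Bone marrow of C57Bl/6 mice was grown for 7 days in 20 ng/ml of GM-CSF or of M-CSF, and the expression of 18193 genes was compared between 2 of the resulting cell fractions. The first fraction was the non-adherent cells of the GM-CSF culture, purified for the integrin CD11c (the array titled GM-CSF CD11c). The fraction it was set against was the adherent cells of the M-CSF culture, kept after a PBS wash had removed the rest (the array titled MCSF Adh). Each fraction was measured on 1 array, so 2 of the 15 arrays of the study carry this comparison, chosen by title. A further array held the adherent cells of the GM-CSF culture. The cytokine, the adherence and the CD11c purification all differed between the 2 fractions, and their parts in any difference cannot be told apart. All samples are of the same strain, these 7-day cultures started from whole marrow, and the labels do not say how many mice gave the cells. The progenitor arrays used further below carry WT in their titles, while the titles of the culture and monocyte arrays give no genotype.

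GM-CSF and M-CSF are growth factors for cells of the monocyte lineage. M-CSF acts through the receptor kinase Csf1r and drives marrow cells to become macrophages, which adhere, take up particles through scavenger receptors and secrete chemokines for monocytes. GM-CSF acts through a receptor pair with a shared beta chain, JAK2 and STAT5, and its marrow cultures are a common source of dendritic cells, which present peptides on MHC class II and, once mature, use the receptor Ccr7 to travel to lymph nodes. Such GM-CSF cultures are known to hold macrophage-like cells as well.

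The values are array intensities on a linear scale, with a median over all probe sets of 25.7 on the GM-CSF CD11c+ array, 24.7 on the GM-CSF adherent array and 24.1 on the M-CSF adherent array. Differences were taken as log2(intensity + 32), so where one side is dim the size of the difference is set partly by the added 32. A gene was counted as higher or lower when it differed at least 4-fold on that scale and its brighter value lay above the median of its array. No p-value can be given with 1 array a side, and it is this number that limits the precision. Elsewhere in the study, 4 bone marrow progenitor groups had 2 arrays each, and between the arrays of a group 0 genes differed 4-fold and 1 to 7 genes differed 2-fold. The progenitor arrays are dimmer, with a 75th percentile of 72.7 to 89.2 units, beside 224 units on each culture array. The added 32 thus shrinks their differences more. The cultures have no repeated array, so the spread between repeated cultures is not known.

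Of 18193 genes, 360 were counted as higher in GM-CSF CD11c+ cells (1.98% of the genes) and 140 as lower (0.77%). The 2 fractions were otherwise close, with 90.31% of the genes within 2-fold and a median log2 difference of 0.01 over all genes. The central 95% of the genes lay between -1.29 and 1.71 on the log2 scale. At a difference of 16-fold or more, 57 genes were higher in GM-CSF CD11c+ cells and 12 were lower. Where a counted gene had further probe sets brighter than the median, 242 of 247 differed in the same direction for the higher genes and 117 of 120 for the lower genes, and 0 differed 2-fold the other way. In bulk RNA, fewer cells of a type and less RNA per cell cannot be told apart.

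**Figure D1:**
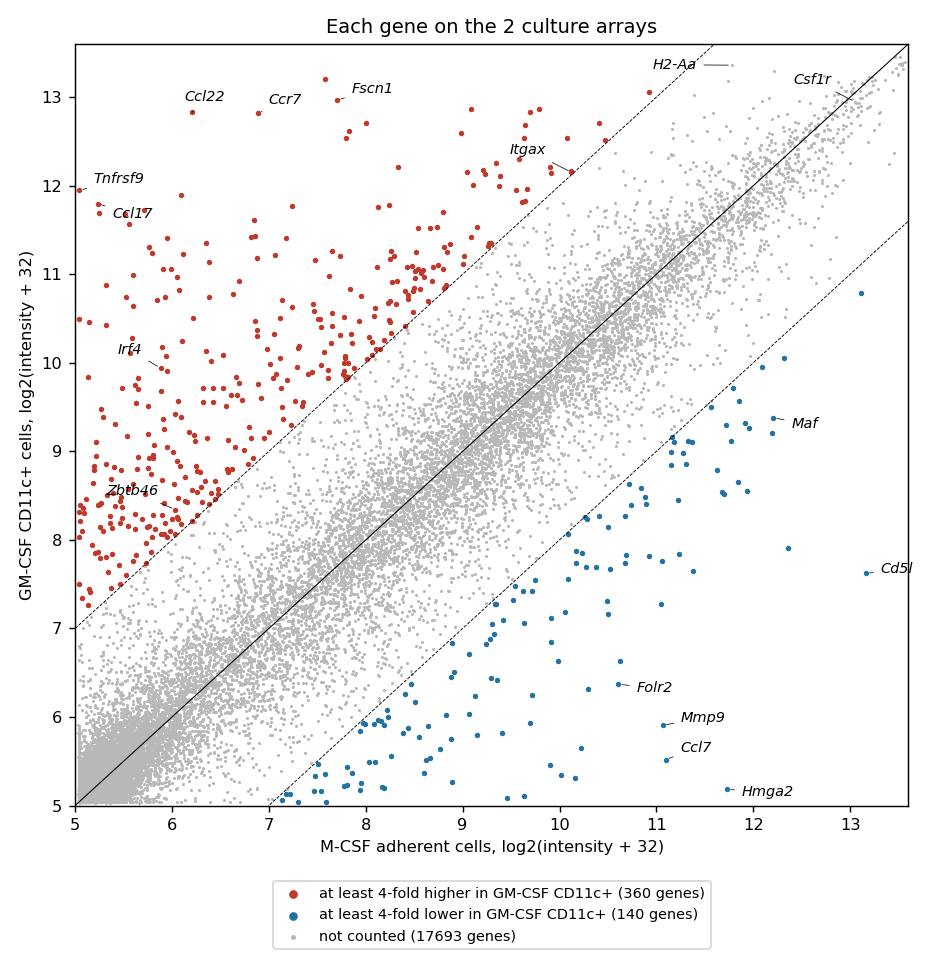
Intensity of each of 18193 genes as log2(intensity + 32), in GM-CSF CD11c+ cells on the vertical axis and in M-CSF adherent cells on the horizontal axis, 1 array each. The dashed lines mark a 4-fold difference; 360 genes (red) lie above the upper line and 140 (blue) below the lower one, while Csf1r lies close to the line of equality.

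The 12 largest higher genes had 1411 to 9409 units in GM-CSF CD11c+ cells and 1 to 159 units in M-CSF adherent cells, where 8 of the 12 lay below the median of all probe sets. Tnfrsf9, the costimulatory receptor 4-1BB, had 3916 units in GM-CSF CD11c+ cells, 327 in GM-CSF adherent cells and 1 in M-CSF adherent cells, the largest log2 difference of all named genes (6.90 for CD11c+ against M-CSF). Its value was high on the CD11c+ array, intermediate on the GM-CSF adherent array and at the lowest level on the M-CSF array.

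Ccl22, a chemokine for Ccr4-bearing T cells, had 7244 units in GM-CSF CD11c+ cells, 1661 in GM-CSF adherent cells and 41.9 in M-CSF adherent cells (log2 difference 6.62). Ccl17, its partner ligand for the same receptor, had 3525, 1133 and 5.58 units on these arrays in the same order (log2 difference 6.56). Both chemokines were highest in CD11c+ cells and dim in the M-CSF cells. Ccr7, the lymph node homing receptor, had 7190 units in GM-CSF CD11c+ cells, 1007 in GM-CSF adherent cells and 86.5 in M-CSF adherent cells, a log2 difference of 5.93. Nr4a3, an orphan nuclear receptor, had 3005 units in GM-CSF CD11c+ cells, 374 in GM-CSF adherent cells and 14.9 in M-CSF adherent cells (log2 difference 6.02), but its other 2 probe sets were dim on all 3 arrays, and the median over its probe sets differed by only 0.28.

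The remaining genes of this group were of mixed function. Clu, a secreted chaperone, had 3366 units in GM-CSF CD11c+ cells, 223 in GM-CSF adherent cells and 20.2 in M-CSF adherent cells. Ceacam15, a member of the carcinoembryonic antigen family, had 3287 units in GM-CSF CD11c+ cells, 201 in GM-CSF adherent cells and 6.03 in M-CSF adherent cells. Flrt3, an adhesion protein with leucine-rich repeats, had 1411 units in GM-CSF CD11c+ cells, 285 in GM-CSF adherent cells and 1 in M-CSF adherent cells. These 3 genes were far brighter in the CD11c+ than in the GM-CSF adherent fraction. A different pattern was shared by Spint1, an inhibitor of serine proteases, and the kallikreins Klk1b1 and Klk1b11. Spint1 had 2684 units in GM-CSF CD11c+ cells, 2141 in GM-CSF adherent cells and 29.8 in M-CSF adherent cells. Klk1b11 had 9409 units in GM-CSF CD11c+ cells, 9180 in GM-CSF adherent cells and 159 in M-CSF adherent cells, so both GM-CSF fractions were high. Klk1b1 followed the same pattern, with 3239, 2594 and 13.7 units. The Klk1b genes are close copies of each other, and probe sets may not separate them.

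The 12 largest lower genes had 1.94 to 208 units in GM-CSF CD11c+ cells and 670 to 9143 units in M-CSF adherent cells. Hmga2, an architectural chromatin protein of fetal and proliferating cells, had 4.35 units in GM-CSF CD11c+ cells, 1 in GM-CSF adherent cells and 3364 in M-CSF adherent cells (log2 difference -6.55). It was bright on the M-CSF array alone of these 3. Cd5l, a scavenger protein secreted by macrophages, had 165 units in GM-CSF CD11c+ cells, 792 in GM-CSF adherent cells and 9143 in M-CSF adherent cells (log2 difference -5.54). Mmp9, a gelatinase, had 28.0 units in GM-CSF CD11c+ cells, 304 in GM-CSF adherent cells and 2115 in M-CSF adherent cells (log2 difference -5.16).

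Cadm1, Cpe, Cnrip1 and Nptx1 were dim in both GM-CSF fractions. Cadm1, an adhesion molecule that also marks cross-presenting dendritic cells, had 8.77 units in GM-CSF CD11c+ cells, 10.7 in GM-CSF adherent cells and 1002 in M-CSF adherent cells. Cpe, carboxypeptidase E, had 7.80, 5.46 and 1108 units on these arrays in the same order. Cnrip1, which binds the tail of the cannabinoid receptor, had 18.3 units in GM-CSF CD11c+ cells, 29.8 in GM-CSF adherent cells and 1161 in M-CSF adherent cells. Nptx1, a neuronal pentraxin, had 2.45 units in GM-CSF CD11c+ cells, 2.80 in GM-CSF adherent cells and 761 in M-CSF adherent cells. Pcdh7, a protocadherin, took a middle value in the GM-CSF adherent cells, with 11.8 units in GM-CSF CD11c+ cells, 83.7 in GM-CSF adherent cells and 925 in M-CSF adherent cells.

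**Figure D2:**
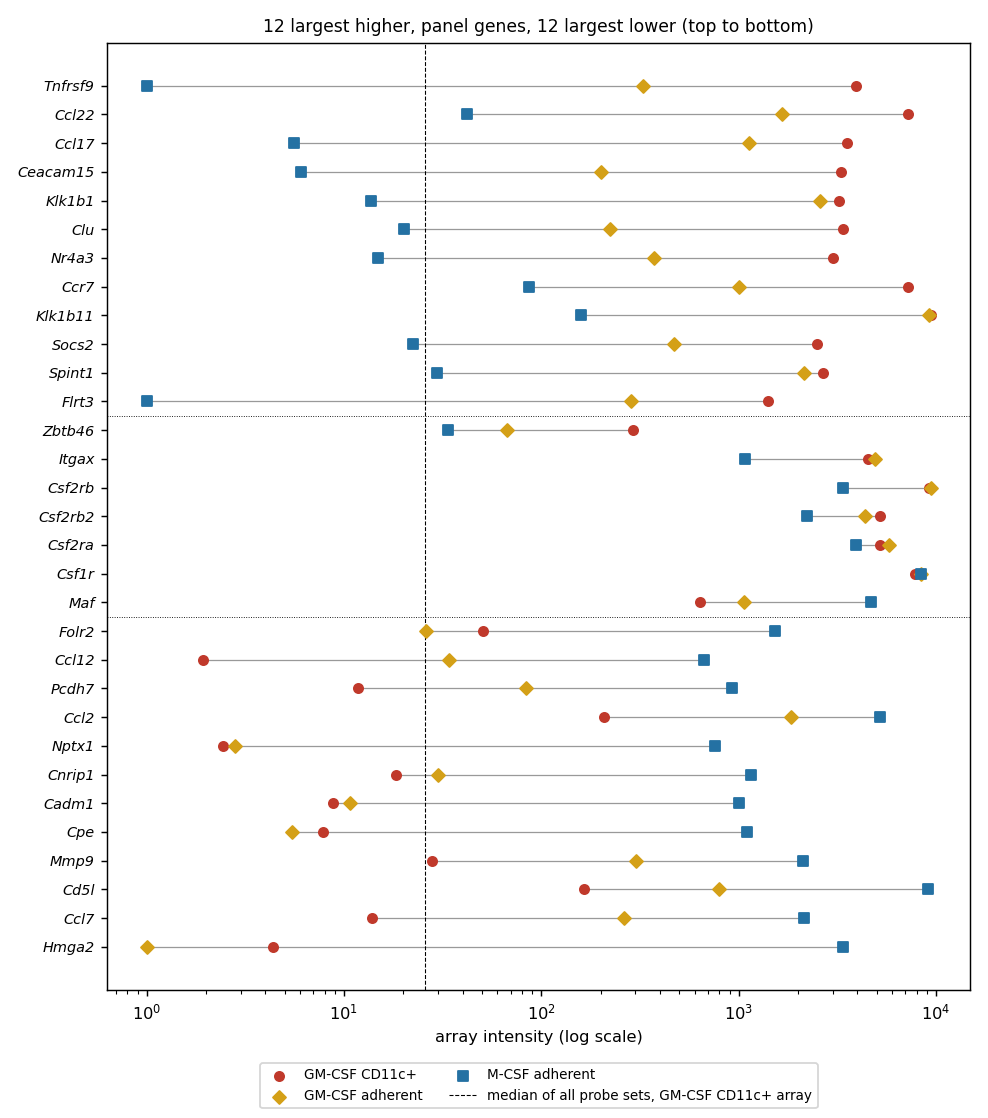
Array intensity on a log scale of 31 genes on the 3 culture arrays: the 12 largest higher genes at the top, 7 markers and cytokine receptor genes in the middle, and the 12 largest lower genes at the bottom. Each symbol is 1 array; Klk1b11 is at a similar level in both GM-CSF fractions, whereas Hmga2 is bright in M-CSF adherent cells alone.

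Markers of both cell types were read on the culture arrays. Ccl17, Ccl22, Ccr7 and Folr2 of these markers are also among the 12 largest differences, so the markers are no separate check of the labels. Of 11 markers of cultured dendritic cells, 6 were counted as higher in GM-CSF CD11c+ cells and 0 as lower. All 11 had a log2 difference above 0 (median 2.31), beside 9271 of all 18193 genes. Of 10 measured macrophage markers, 0 were counted as higher, 3 as lower and 7 as neither. Their log2 difference was above 0 for 2 and below 0 for 8 (median -0.88). Zbtb46, a transcription factor of classical dendritic cells, had 293 units in GM-CSF CD11c+ cells, 66.8 in GM-CSF adherent cells and 33.5 in M-CSF adherent cells (log2 difference 2.31). It was highest in the CD11c+ fraction and close to the array median in the M-CSF fraction, and its difference fell short of 4-fold with 64 added in place of 32 (1.87).

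The macrophage markers were split. Folr2, the folate receptor of resident macrophages, had 50.6 units in GM-CSF CD11c+ cells, 26.2 in GM-CSF adherent cells and 1529 in M-CSF adherent cells (log2 difference -4.24). Stab1, a scavenger receptor, had 195 units in GM-CSF CD11c+ cells, 256 in GM-CSF adherent cells and 1614 in M-CSF adherent cells (log2 difference -2.86). These 2 and Maf were the markers counted as lower. C1qa, which encodes a chain of complement C1q, had 2847 units in GM-CSF CD11c+ cells, 2199 in GM-CSF adherent cells and 2453 in M-CSF adherent cells. Adgre1, the F4/80 antigen, had 4046 units in GM-CSF CD11c+ cells, 4937 in GM-CSF adherent cells and 6889 in M-CSF adherent cells. Mertk, a receptor for apoptotic cells, had 1027 units in GM-CSF CD11c+ cells, 1435 in GM-CSF adherent cells and 483 in M-CSF adherent cells, higher in both GM-CSF fractions though less than 4-fold. C1qa and Mertk were the 2 macrophage markers with a log2 difference above 0. The other C1q chains were below 0. C1qb had 5716 units in GM-CSF CD11c+ and 9302 in M-CSF adherent cells (log2 difference -0.70), and C1qc 2943 and 6308 (-1.09). C1qa, Adgre1 and Mertk were thus bright in the CD11c+ fraction, whose RNA held dendritic cell markers and macrophage markers together. Bulk RNA cannot tell whether the same cells carried both. Itgax, the gene of CD11c itself, was a criterion of the purification; it had 4515 units in GM-CSF CD11c+ cells, 4904 in GM-CSF adherent cells and 1083 in M-CSF adherent cells.

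Genes of dendritic cell maturation and migration made up the list with the most higher genes. Of 28 measured, 17 were counted as higher in GM-CSF CD11c+ cells and 0 as lower, with a median log2 difference of 2.35 beside 0.01 over all genes. Of 30 measured genes of the dendritic cell core, 15 were higher and 0 lower (median 1.88). Fscn1, the actin bundler of dendrites, had 7967 units in GM-CSF CD11c+ cells, 1648 in GM-CSF adherent cells and 177 in M-CSF adherent cells, a log2 difference of 5.26. Socs2, a feedback inhibitor of cytokine receptors, had 2497 units in GM-CSF CD11c+ cells, 471 in GM-CSF adherent cells and 22.4 in M-CSF adherent cells (log2 difference 5.54, but 1.72 as the median over its probe sets). Both genes took a middle value in GM-CSF adherent cells.

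Cd83, a surface marker of mature dendritic cells, had 4997 units in GM-CSF CD11c+ cells, 1071 in GM-CSF adherent cells and 735 in M-CSF adherent cells (log2 difference 2.71). Within the core list, P2ry10, a lysophospholipid receptor, had 1683 units in GM-CSF CD11c+ cells, 324 in GM-CSF adherent cells and 51.5 in M-CSF adherent cells (log2 difference 4.36). Adam23, a membrane protein of the disintegrin family, had 882 units in GM-CSF CD11c+ cells, 296 in GM-CSF adherent cells and 3.13 in M-CSF adherent cells (log2 difference 4.70). Not every member moved: Il4i1, an amino acid oxidase of mature dendritic cells, was dim on all 3 arrays (2.57 to 2.89 units), and Bcl11a, a lymphoid and dendritic cell factor, had 23.4 units in GM-CSF CD11c+ cells and 20.4 in M-CSF adherent cells.

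Of 15 measured costimulatory genes, 7 were counted as higher in GM-CSF CD11c+ cells and 0 as lower, and all 15 differed upwards (median 1.36). Pdcd1lg2, the inhibitory ligand PD-L2, had 1682 units in GM-CSF CD11c+ cells, 186 in GM-CSF adherent cells and 13.9 in M-CSF adherent cells (log2 difference 5.22). Tnfsf4, the ligand OX40L, had 878 units in GM-CSF CD11c+ cells, 77.8 in GM-CSF adherent cells and 18.1 in M-CSF adherent cells (log2 difference 4.18). Both sides of that pair were higher in the CD11c+ cells, since the receptor Tnfrsf4 (OX40) had 365 units there, 38.9 in GM-CSF adherent cells and 16.5 in M-CSF adherent cells. Cd86, the ligand of Cd28, had 2144 units in GM-CSF CD11c+ cells, 1001 in GM-CSF adherent cells and 325 in M-CSF adherent cells (log2 difference 2.61). Cd40 had 317 units in GM-CSF CD11c+ cells, 54.3 in GM-CSF adherent cells and 143 in M-CSF adherent cells and was not counted.

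**Figure D3:**
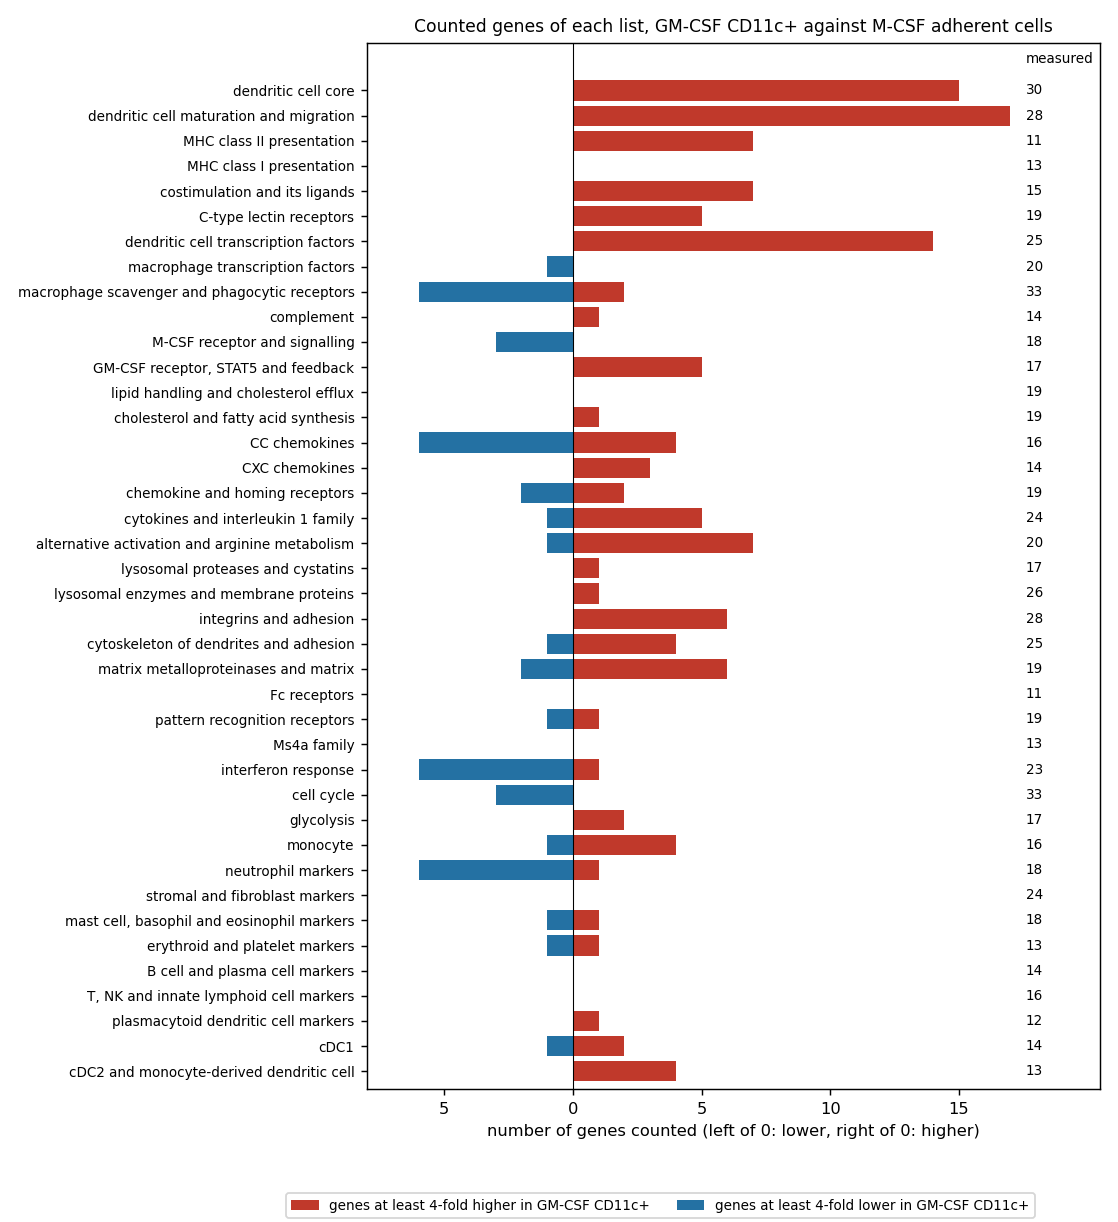
Number of genes in each of 40 lists that were at least 4-fold higher (red, right) or lower (blue, left) in GM-CSF CD11c+ cells than in M-CSF adherent cells, with the number of genes measured at the right edge. The lists of dendritic cell maturation (17 higher), dendritic cell core (15) and dendritic cell transcription factors (14) hold 0 lower genes; some genes belong to more than 1 list.

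MHC class II genes were higher as well. Of 11 measured, 7 were counted as higher in GM-CSF CD11c+ cells and 0 as lower, and all 11 differed upwards (median 2.24). Ciita, the coactivator that switches on the class II genes, had 466 units in GM-CSF CD11c+ cells, 164 in GM-CSF adherent cells and 24.0 in M-CSF adherent cells (log2 difference 3.15, but 1.68 as the median over its probe sets). H2-DMb2, a chain of the peptide exchange factor H2-M, had 3102 units in GM-CSF CD11c+ cells, 1166 in GM-CSF adherent cells and 83.0 in M-CSF adherent cells (log2 difference 4.77). H2-Oa, a chain of the H2-O protein that restrains H2-M, had 1643 units in GM-CSF CD11c+ cells, 565 in GM-CSF adherent cells and 109 in M-CSF adherent cells (log2 difference 3.58). H2-DMb2 and H2-Oa were thus lowest in M-CSF cells and intermediate in GM-CSF adherent cells. H2-DMa, the partner chain of H2-DMb2, had 4455 units in GM-CSF CD11c+ cells, 3291 in GM-CSF adherent cells and 568 in M-CSF adherent cells (log2 difference 2.90), well above the array median in all 3. H2-Eb2, a further beta chain, had 378 units in GM-CSF CD11c+ cells, 54.0 in GM-CSF adherent cells and 27.8 in M-CSF adherent cells (log2 difference 2.78). H2-Aa, a classical alpha chain, had 10488 units in GM-CSF CD11c+ cells, 9021 in GM-CSF adherent cells and 3484 in M-CSF adherent cells (log2 difference 1.58), and was not counted. H2-Eb1, a classical beta chain, had 8486 units in GM-CSF CD11c+ cells, 6420 in GM-CSF adherent cells and 1909 in M-CSF adherent cells (log2 difference 2.13). Class I genes did not share this pattern: of 13 measured, 0 were counted in either direction, with a median log2 difference of -0.04.

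Promoters of class II genes are known to carry a set of boxes (S, X and Y) on which Ciita is recruited, the Y box being an inverted CCAAT motif. The promoter windows are shown because the members moved together. Of 12 motifs searched, the motif CTGATTGG is shown, a form of the Y box. It was searched on both strands in 300 bases around each start site (250 before to 50 after) from RefSeq on GRCm38.p6, and 4 of the 8 class II genes with a window held it, beside 5.87% of the 14452 genes with a window. Of the 274 counted higher genes with a window, 16 held it, or 5.84%, close to the share of all genes. Among the other motifs, the AP-1 letters TGACTCA were in 10.6% of the higher genes' windows, 7.84% of the lower genes' windows and 5.33% of all. The STAT letters TTCNNNGAA were in 11.3%, 8.82% and 8.57%, in the same order. None of these differences was tested, and these 2 motifs were picked after their shares were seen. The 4 windows below run from 200 bases before the start site to the base before it, in the direction of transcription, with the match in capitals. H2-Eb1, H2-Eb2 and H2-Oa were counted as higher, and H2-Aa was not. A match describes letters and is no evidence of binding. On chromosome 17, H2-Aa is at chr17:34287824-34288023 on the minus strand, H2-Eb1 at chr17:34305667-34305866, H2-Eb2 at chr17:34325475-34325674 and H2-Oa at chr17:34092179-34092378, the last 3 on the plus strand.
H2-Aa: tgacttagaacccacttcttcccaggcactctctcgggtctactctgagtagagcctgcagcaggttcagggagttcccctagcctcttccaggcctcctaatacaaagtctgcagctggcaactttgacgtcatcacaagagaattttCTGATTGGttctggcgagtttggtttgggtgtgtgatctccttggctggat
H2-Eb1: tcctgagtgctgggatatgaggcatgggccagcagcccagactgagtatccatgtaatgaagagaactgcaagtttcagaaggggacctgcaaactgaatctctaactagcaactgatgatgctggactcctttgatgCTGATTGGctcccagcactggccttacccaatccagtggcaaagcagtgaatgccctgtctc
H2-Eb2: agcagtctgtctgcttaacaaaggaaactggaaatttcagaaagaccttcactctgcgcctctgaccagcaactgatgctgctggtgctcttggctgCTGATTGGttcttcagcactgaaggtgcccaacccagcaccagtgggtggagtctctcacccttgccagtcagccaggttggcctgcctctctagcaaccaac
H2-Oa: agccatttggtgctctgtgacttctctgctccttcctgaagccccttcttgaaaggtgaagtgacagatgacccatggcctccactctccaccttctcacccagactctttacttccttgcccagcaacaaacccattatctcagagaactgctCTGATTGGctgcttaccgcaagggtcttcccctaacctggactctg

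Among 25 measured dendritic cell transcription factors, 14 were counted as higher in GM-CSF CD11c+ cells and 0 as lower (median 2.31). Irf4, a factor of the cDC2 branch and of antigen presentation, had 950 units in GM-CSF CD11c+ cells, 319 in GM-CSF adherent cells and 27.0 in M-CSF adherent cells (log2 difference 4.06). Irf8, a factor of the cDC1 branch and of monocytes, had 5181 units in GM-CSF CD11c+ cells, 2075 in GM-CSF adherent cells and 2268 in M-CSF adherent cells (log2 difference 1.18), and was not counted. Stat4, a signal transducer of interleukin 12, had 2723 units in GM-CSF CD11c+ cells, 159 in GM-CSF adherent cells and 83.6 in M-CSF adherent cells (log2 difference 4.57).

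Runx3, a factor of TGF-beta responses in dendritic cells, had 1129 units in GM-CSF CD11c+ cells, 542 in GM-CSF adherent cells and 27.5 in M-CSF adherent cells (log2 difference 4.29). Spib, an Ets factor best known in plasmacytoid dendritic cells and B cells, had 1407 units in GM-CSF CD11c+ cells, 171 in GM-CSF adherent cells and 153 in M-CSF adherent cells (log2 difference 2.96). Stat4 and Spib were thus high on the CD11c+ array and low on both adherent arrays, while Irf4 and Runx3 were intermediate in the GM-CSF adherent cells. Batf3, which cDC1 need for their development, had 902 units in GM-CSF CD11c+ cells, 304 in GM-CSF adherent cells and 103 in M-CSF adherent cells (log2 difference 2.80). Vdr, the vitamin D receptor, had 682 units in GM-CSF CD11c+ cells, 111 in GM-CSF adherent cells and 6.52 in M-CSF adherent cells (log2 difference 4.21).

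Macrophage transcription factors showed few differences: of 20 measured, 0 were counted as higher and 1 as lower (median -0.04). The lower one was Maf, which keeps macrophages differentiated. Maf had 635 units in GM-CSF CD11c+ cells, 1063 in GM-CSF adherent cells and 4693 in M-CSF adherent cells (log2 difference -2.82). On this probe set it was lower in both GM-CSF fractions but well above the array median in each. Another Maf probe set had 25.3 units in GM-CSF CD11c+ cells, just below the array median, and 1051 in M-CSF adherent cells (log2 difference -4.24). The remaining Maf probe sets had log2 differences from -3.88 to -0.55. Nr1h3, the liver X receptor alpha, had 99.5 units in GM-CSF CD11c+ cells, 260 in GM-CSF adherent cells and 248 in M-CSF adherent cells and was not counted. Cebpb, a factor of monocyte and macrophage genes, had 3196 units in GM-CSF CD11c+ cells, 4898 in GM-CSF adherent cells and 1600 in M-CSF adherent cells.

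Of 33 measured scavenger and phagocytic receptors, 2 were counted as higher in GM-CSF CD11c+ cells and 6 as lower, and 25 had a log2 difference below 0 (median -0.56). The lower genes included Folr2 and Stab1, given above. Gas6, a bridge between dying cells and the TAM receptors, had 342 units in GM-CSF CD11c+ cells, 442 in GM-CSF adherent cells and 3872 in M-CSF adherent cells (log2 difference -3.38). Axl, one of those receptors, went the other way, with 4066 units in GM-CSF CD11c+ cells, 4388 in GM-CSF adherent cells and 632 in M-CSF adherent cells (log2 difference 2.63). The ligand was thus brighter in M-CSF cells and the receptor brighter in both GM-CSF fractions. Siglec1, the sialoadhesin of macrophages, had 24.5 units in GM-CSF CD11c+ cells, 127 in GM-CSF adherent cells and 303 in M-CSF adherent cells (log2 difference -2.57), but -0.84 as the median over its probe sets. Vsig4, Lyve1 and Timd4, marks of macrophages resident in tissue, were below the array median on all 3 arrays.

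Complement genes were mostly close on both sides, with 1 of 14 higher, 0 lower and a median of -0.21. C3ar1, a receptor for the fragment C3a, had 2719 units in GM-CSF CD11c+ cells, 4399 in GM-CSF adherent cells and 7373 in M-CSF adherent cells. C5ar1, the receptor for C5a, had 1439 units in GM-CSF CD11c+ cells, 2479 in GM-CSF adherent cells and 5123 in M-CSF adherent cells (log2 difference -1.81). Neither was counted. Cfb, a protease subunit of the alternative pathway, was the higher one, with 277 units in GM-CSF CD11c+ cells, 244 in GM-CSF adherent cells and 9.16 in M-CSF adherent cells. Among 11 Fc receptor genes and 19 genes of lipid handling, 0 were counted in either direction (medians -0.23 each). The lysosomal lists were likewise close, with 1 of 17 proteases and cystatins and 1 of 26 other lysosomal genes higher and 0 lower. The higher ones were Ctsk, the cathepsin of bone resorption, with 2401 units in GM-CSF CD11c+ cells, 2608 in GM-CSF adherent cells and 335 in M-CSF adherent cells, and Acp5, an acid phosphatase, with 1487, 1190 and 327 units, which fell short of 4-fold with 64 added (log2 difference 1.99).

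None of the 4 cytokine receptor genes was counted as different. Csf1r, the M-CSF receptor, had 7874 units in GM-CSF CD11c+ cells, 8438 in GM-CSF adherent cells and 8426 in M-CSF adherent cells (log2 difference -0.10). Csf2ra, the alpha chain of the GM-CSF receptor, had 5235 units in GM-CSF CD11c+ cells, 5815 in GM-CSF adherent cells and 3918 in M-CSF adherent cells (log2 difference 0.42). Csf2rb, the shared beta chain, had 9247 units in GM-CSF CD11c+ cells, 9468 in GM-CSF adherent cells and 3392 in M-CSF adherent cells (log2 difference 1.44), while its other probe set had a log2 difference of 2.30, past the 4-fold limit. Csf2rb2, a second beta chain gene of the mouse, had 5231 units in GM-CSF CD11c+ cells, 4352 in GM-CSF adherent cells and 2234 in M-CSF adherent cells (log2 difference 1.22). All 4 receptor genes were bright on every culture array, and Csf1r was close on all 3. Csf2, which encodes GM-CSF, was at 1 unit on all 3 arrays.

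Of 17 measured genes of the GM-CSF receptor, its ligand, STAT5 signalling and feedback, 5 were counted as higher in GM-CSF CD11c+ cells and 0 as lower (median 1.27). Jak2, the kinase bound to the beta chain, had 4091 units in GM-CSF CD11c+ cells, 1454 in GM-CSF adherent cells and 519 in M-CSF adherent cells (log2 difference 2.90). Cish, a STAT5 target and feedback inhibitor, had 700 units in GM-CSF CD11c+ cells, 330 in GM-CSF adherent cells and 62.4 in M-CSF adherent cells (log2 difference 2.95). Socs3, another such inhibitor, had 508 units in GM-CSF CD11c+ cells, 829 in GM-CSF adherent cells and 24.2 in M-CSF adherent cells (log2 difference 3.26). Jak2, Cish and Socs3 were each higher in both GM-CSF fractions than in the M-CSF cells. Bcl2l1, a survival gene of the same list, had 392.2 units in GM-CSF CD11c+ cells, 1324 in GM-CSF adherent cells and 1461 in M-CSF adherent cells and was not counted.

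Of 18 measured genes of M-CSF signalling, 0 were counted as higher in GM-CSF CD11c+ cells and 3 as lower (median -0.12). Etv5, an Ets factor induced by ERK signalling, had 67.3 units in GM-CSF CD11c+ cells, 301 in GM-CSF adherent cells and 980 in M-CSF adherent cells (log2 difference -3.35). Spry2, an ERK feedback inhibitor, had 21.8 units in GM-CSF CD11c+ cells, 129 in GM-CSF adherent cells and 439 in M-CSF adherent cells (log2 difference -3.13). Ccnd1, cyclin D1, had 560 units in GM-CSF CD11c+ cells, 1065 in GM-CSF adherent cells and 4645 in M-CSF adherent cells (log2 difference -2.98). These 3 shared an order across the arrays, with GM-CSF adherent cells in the middle and M-CSF adherent cells highest.

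Chemokine genes went both ways. Of 16 measured CC chemokines, 4 were counted as higher in GM-CSF CD11c+ cells and 6 as lower, with a median of 0.05. Beside Ccl17 and Ccl22 the higher genes included Ccl5, which attracts T cells, with 5929 units in GM-CSF CD11c+ cells, 886 in GM-CSF adherent cells and 190 in M-CSF adherent cells (log2 difference 4.74). The lower genes included the ligands of Ccr2 that recruit monocytes. Ccl2 had 208 units in GM-CSF CD11c+ cells, 1841 in GM-CSF adherent cells and 5214 in M-CSF adherent cells (log2 difference -4.45), and Ccl7 had 13.8, 263 and 2155 units (log2 difference -5.58). Ccl12 had 1.94 units in GM-CSF CD11c+ cells, 34.2 in GM-CSF adherent cells and 670 in M-CSF adherent cells (log2 difference -4.37). For each of Ccl2, Ccl7 and Ccl12 the CD11c+ array was lowest and the M-CSF array highest. Their receptor gene Ccr2 had 3416 units in GM-CSF CD11c+ cells, 4053 in GM-CSF adherent cells and 906 in M-CSF adherent cells (log2 difference 1.88), below the 4-fold limit, but 2.44 as the median over its probe sets.

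Of 14 measured CXC and CX3C chemokines, 3 were higher and 0 lower (median -0.01). Cxcl16, a ligand of Cxcr6, had 4586 units in GM-CSF CD11c+ cells, 1439 in GM-CSF adherent cells and 559 in M-CSF adherent cells (log2 difference 2.97). Of 19 chemokine and homing receptors, 2 were higher and 2 lower (median 0.40). The higher ones were Ccr7 and Fpr2, a formyl peptide receptor, with 764 units in GM-CSF CD11c+ cells, 1039 in GM-CSF adherent cells and 66.0 in M-CSF adherent cells. The lower ones were Ccr3 and S1pr1, the receptor by which lymphocytes leave lymph nodes, with 85.6 units in GM-CSF CD11c+ cells, 179.5 in GM-CSF adherent cells and 591 in M-CSF adherent cells (log2 difference -2.41).

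Of 24 cytokine genes, 5 were counted as higher in GM-CSF CD11c+ cells and 1 as lower (median 0.14). Il12b, the p40 chain shared by interleukins 12 and 23, had 2367 units in GM-CSF CD11c+ cells, 229 in GM-CSF adherent cells and 37.1 in M-CSF adherent cells (log2 difference 5.12). Its partner chains were dim throughout: Il12a had 13.3 units in GM-CSF CD11c+ cells and 16.7 in M-CSF adherent cells, and Il23a had 11.4 and 9.28 units. Il1b had 1107 units in GM-CSF CD11c+ cells, 1205 in GM-CSF adherent cells and 93.9 in M-CSF adherent cells (log2 difference 3.18). Il1r2, the decoy receptor for interleukin 1, had 1341 units in GM-CSF CD11c+ cells, 842 in GM-CSF adherent cells and 7.88 in M-CSF adherent cells (log2 difference 5.11). Hbegf, an EGF receptor ligand, was the lower one, with 6.51 units in GM-CSF CD11c+ cells, 135 in GM-CSF adherent cells and 443 in M-CSF adherent cells (log2 difference -3.63).

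Among 20 genes of alternative activation and arginine metabolism, 7 were counted as higher in GM-CSF CD11c+ cells and 1 as lower (median 1.59). Ccl17, Ccl22 and Pdcd1lg2 are among the 7 and were described above. Arg1, arginase, had 1211 units in GM-CSF CD11c+ cells, 898 in GM-CSF adherent cells and 16.2 in M-CSF adherent cells (log2 difference 4.69). Slc7a2, a carrier of arginine, had 2385 units in GM-CSF CD11c+ cells, 2120 in GM-CSF adherent cells and 23.3 in M-CSF adherent cells (log2 difference 5.45). Both genes were nearly as bright in the adherent as in the CD11c+ fraction of the GM-CSF culture. Retnla and Nos2, marks of alternatively and classically activated macrophages, were below the array median on all 3 arrays.

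Of 19 measured C-type lectin receptors, 5 were higher in GM-CSF CD11c+ cells and 0 lower (median 1.03). Clec4n (Dectin-2), a receptor for fungal mannans, had 7459 units in GM-CSF CD11c+ cells, 8435 in GM-CSF adherent cells and 513 in M-CSF adherent cells (log2 difference 3.78). Mgl2, a galactose-type lectin, had 2701 units in GM-CSF CD11c+ cells, 1862 in GM-CSF adherent cells and 80.6 in M-CSF adherent cells (log2 difference 4.60). Ly75 (DEC-205), an uptake receptor of dendritic cells, had 640 units in GM-CSF CD11c+ cells, 500 in GM-CSF adherent cells and 7.14 in M-CSF adherent cells (log2 difference 4.10). All 3 lectin genes were bright in both GM-CSF fractions. Cd209a, a marker of monocyte-derived dendritic cells, had 158 units in GM-CSF CD11c+ cells, 118 in GM-CSF adherent cells and 35.7 in M-CSF adherent cells and was not counted.

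Adhesion and matrix genes were mostly shared by the 2 GM-CSF fractions. Of 28 integrins and adhesion genes, 6 were higher and 0 lower (median 0.57), and of 19 metalloproteinase and matrix genes, 6 were higher and 2 lower (median 0.19). Fn1, fibronectin, had 6273 units in GM-CSF CD11c+ cells, 5301 in GM-CSF adherent cells and 195 in M-CSF adherent cells (log2 difference 4.79). Mmp14, a membrane-bound collagenase, had 2288 units in GM-CSF CD11c+ cells, 1968 in GM-CSF adherent cells and 85.6 in M-CSF adherent cells (log2 difference 4.30). Itgal, the alpha chain of LFA-1, had 985 units in GM-CSF CD11c+ cells, 991 in GM-CSF adherent cells and 97.4 in M-CSF adherent cells (log2 difference 2.97). For Fn1, Mmp14 and Itgal the 2 GM-CSF arrays lay side by side and far above the M-CSF array. Of 25 cytoskeletal genes, 4 were higher and 1 was lower (median 0.08). The lower one was Myo1e, a single-headed myosin, with 365 units in GM-CSF CD11c+ cells, 1206 in GM-CSF adherent cells and 1650 in M-CSF adherent cells (log2 difference -2.08, and -1.95 as the median over its probe sets).

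Interferon response genes were mostly dimmer in the CD11c+ cells. Of 23 measured, 1 was counted as higher and 6 as lower, 20 had a log2 difference below 0, and the median was -1.26. Ifit2 had 127 units in GM-CSF CD11c+ cells, 335 in GM-CSF adherent cells and 1411 in M-CSF adherent cells (log2 difference -3.18). Rsad2 (viperin) had 432 units in GM-CSF CD11c+ cells, 836 in GM-CSF adherent cells and 2508 in M-CSF adherent cells (log2 difference -2.45). Both antiviral genes were lowest on the CD11c+ array and highest on the M-CSF array. Mx1, which encodes a GTPase, was the gene counted as higher, and 1 of 3 with a log2 difference above 0. It had 1908 units in GM-CSF CD11c+ cells, 289 in GM-CSF adherent cells and 289 in M-CSF adherent cells (log2 difference 2.60).

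Of 33 cell cycle genes, 0 were counted as higher in GM-CSF CD11c+ cells and 3 as lower, but 31 had a log2 difference below 0, with a median of -1.15. Ccne2, cyclin E2, had 53.6 units in GM-CSF CD11c+ cells, 380 in GM-CSF adherent cells and 624 in M-CSF adherent cells (log2 difference -2.94). Cdc6, which loads the replicative helicase, had 44.7 units in GM-CSF CD11c+ cells, 144 in GM-CSF adherent cells and 306 in M-CSF adherent cells (log2 difference -2.14). Tk1, thymidine kinase, had 128 units in GM-CSF CD11c+ cells, 259 in GM-CSF adherent cells and 703 in M-CSF adherent cells (log2 difference -2.19). All 3 lay lowest in the CD11c+ cells and highest in the M-CSF cells, and with 64 added Cdc6 and Tk1 fell short of 4-fold. Glycolysis (2 of 17 higher, 0 lower), cholesterol and fatty acid synthesis (1 of 19 higher, 0 lower), pattern recognition receptors (1 higher and 1 lower of 19) and the Ms4a family (0 of 13) held few counted genes. Aldoc, an aldolase, had 2180 units in GM-CSF CD11c+ cells, 1943 in GM-CSF adherent cells and 481 in M-CSF adherent cells. Tlr2, a receptor for bacterial lipoproteins, had 2043 units in GM-CSF CD11c+ cells, 2352 in GM-CSF adherent cells and 349 in M-CSF adherent cells, while its partner Tlr1 had 304, 716 and 1676 units.

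The cultures started from whole marrow, and markers of other cells were not absent. Of 18 neutrophil markers, 1 was counted as higher in GM-CSF CD11c+ cells and 6 as lower (median -0.66), and their summed intensity was 8930 in GM-CSF CD11c+ cells, 31314 in GM-CSF adherent cells and 14319 in M-CSF adherent cells. S100a9, a calcium-binding protein of neutrophils and monocytes, had 334 units in GM-CSF CD11c+ cells, 7189 in GM-CSF adherent cells and 3286 in M-CSF adherent cells. Ngp, a neutrophil granule protein, had 123 units in GM-CSF CD11c+ cells, 4379 in GM-CSF adherent cells and 2079 in M-CSF adherent cells. Camp, the cathelicidin of neutrophils, was at 1 unit in GM-CSF CD11c+ cells, 546 in GM-CSF adherent cells and 160 in M-CSF adherent cells. All 3 were lowest in the purified fraction. Mmp8, a neutrophil collagenase, was the marker counted as higher and went against the others, with 6157 units in GM-CSF CD11c+ cells, 6181 in GM-CSF adherent cells and 473 in M-CSF adherent cells. The part of neutrophil RNA in the genes that were lower in CD11c+ cells was not tested.

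The other marker lists held few counted genes. Of 16 monocyte markers, 4 were higher and 1 was lower (median 0.21). Among 14 cDC1 markers, 2 were higher and 1 lower (median 0.27), and Xcr1, which defines cDC1, was at or near 1 unit on all 3 arrays. Among 13 markers of cDC2 and monocyte-derived dendritic cells, 4 were higher and 0 lower (median 0.61). Of 12 plasmacytoid markers, 1 was higher (Spib) and 0 lower, and Siglech had 1.93 units in GM-CSF CD11c+ cells and 43.3 in M-CSF adherent cells. For 24 stromal, 14 B cell and 16 T and NK cell markers 0 were counted in either direction. Of 18 mast cell, basophil and eosinophil markers, 1 was higher and 1 lower, and of 13 erythroid and platelet markers likewise. Prg2, an eosinophil granule protein, had 4.29 units in GM-CSF CD11c+ cells, 850 in GM-CSF adherent cells and 79.7 in M-CSF adherent cells.

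The adherent cells of the GM-CSF culture share the cytokine with one fraction and the adherence with the other. For each counted gene their value was placed on the log2 line between the M-CSF adherent array (0%) and the GM-CSF CD11c+ array (100%). This uses the same 2 arrays that chose the genes, and is a description. The median place was 65.18% for the 360 higher genes and 66.16% for the 140 lower genes. The adherent GM-CSF cells were nearer to the CD11c+ cells for 220 of the higher genes (61.1%) and for 102 of the lower genes (72.9%). For 64 of the higher genes the adherent cells lay beyond the CD11c+ cells.

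The separate comparisons share arrays with the main one and are given beside it. GM-CSF adherent against M-CSF adherent cells had 209 higher genes (1.15%) and 56 lower genes (0.308%). GM-CSF CD11c+ against GM-CSF adherent cells had 103 higher genes (0.566%) and 30 lower genes (0.165%). Of the 28 maturation genes, 7 were higher in GM-CSF adherent than in M-CSF adherent cells, and 15 were higher in GM-CSF CD11c+ than in GM-CSF adherent cells. Of the 20 genes of alternative activation the 2 counts were 9 and 2. Of the 28 adhesion genes, 6 were higher in GM-CSF adherent than in M-CSF adherent cells and 0 in CD11c+ than in GM-CSF adherent cells.

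**Figure D4:**
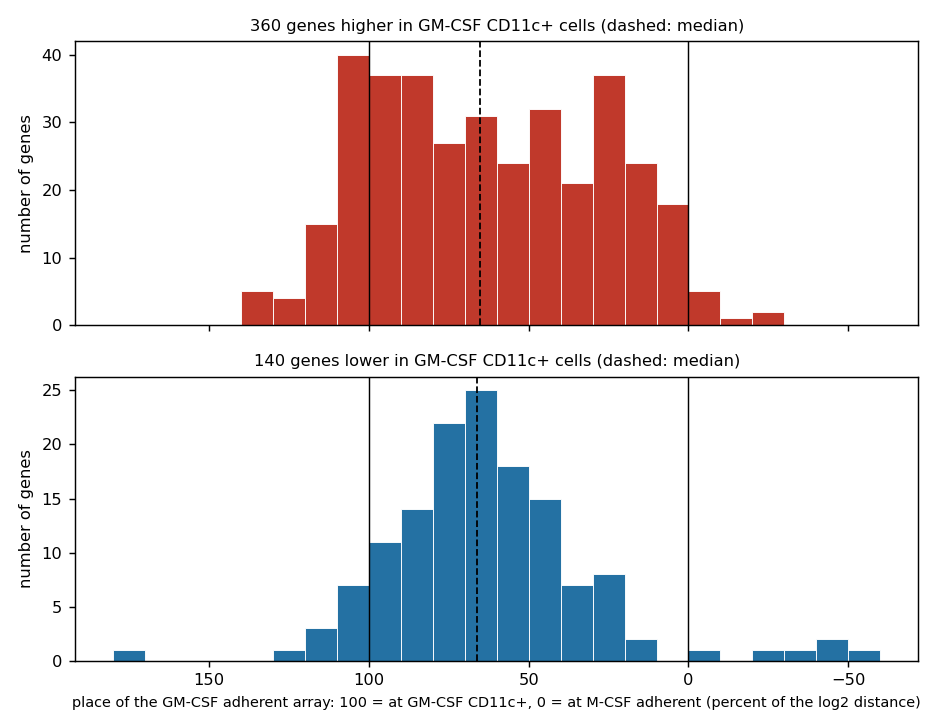
Place of the GM-CSF adherent array between the GM-CSF CD11c+ array (100, left) and the M-CSF adherent array (0, right), in percent of the log2 distance, for the 360 higher genes (top) and the 140 lower genes (bottom); bars count genes. The dashed medians are 65.18% and 66.16%, and the higher genes spread over the whole range; 1 value past the right end of the axis is drawn in its last bar.

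Monocytes of bone marrow, obtained by removing cells that carry markers of other lineages, CD11c or CD117, were put into GM-CSF at 20 ng/ml. They were measured on 1 array each at 0, 24 and 48 h, and these arrays had no part in choosing the genes. The study has no array of monocytes kept without GM-CSF, so GM-CSF and time in culture cannot be told apart. At 48 h against 0 h, 545 of all genes were counted as higher (3.0%) and 309 as lower (1.7%). Of the 360 genes higher in GM-CSF CD11c+ cells, 130 were higher in monocytes at 48 h (36.1%) and 19 were lower (5.28%). Of the 140 genes lower in GM-CSF CD11c+ cells, 18 were higher in monocytes at 48 h (12.9%) and 15 were lower (10.7%). The monocyte intensities stand on another scale than those of the cultures, and no level is compared between them.

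Zbtb46 had 128 units at 0 h, 1487 at 24 h and 2155 at 48 h (log2 difference 3.78 for 48 h against 0 h). Ccl17 had 48.7 units at 0 h, 16201 at 24 h and 16325 at 48 h, and Irf4 had 473, 6639 and 6248 units at these times, so both reached their later level by 24 h. Other genes of the maturation list, to which Ccl17 also belongs, had a later course. Ccr7 had 16.9 units at 0 h, 121 at 24 h and 2977 at 48 h (log2 difference 5.94). Fscn1 had 9.51 units at 0 h, 758 at 24 h and 10480 at 48 h (log2 difference 7.98), and Tnfrsf9 had 33.4, 167 and 3786 units. Each of these 3 was far brighter at 48 h than at 24 h. Of the 28 maturation genes, 18 were counted as higher at 48 h and 0 as lower, and of the 11 class II genes 7 were higher and 0 lower.

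Not all genes of the culture comparison moved alike in monocytes. Il12b had 37.6 units at 0 h, 78.0 at 24 h and 89.3 at 48 h, and Spib had 98.0, 50.7 and 91.1 units, and neither was counted. Maf had 1749 units at 0 h, 2622 at 24 h and 2599 at 48 h, and Folr2 had 95.2, 136 and 141 units. These macrophage markers of M-CSF cells were thus not lower in monocytes at 48 h than at 0 h. C1qb and C1qc, chains of complement C1q, were higher at 48 h, with C1qc at 19.0 units at 0 h, 1276 at 24 h and 2353 at 48 h. Ccl7, lower in the CD11c+ cells, was higher in monocytes at 48 h, with 63.7 units at 0 h, 806 at 24 h and 460 at 48 h.

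Bone marrow pre-cDC, the direct precursors of classical dendritic cells (sorted as CD117lo, CD135+, CD11c+ and MHC class II negative), and their precursors, the common dendritic cell progenitors (CDP, CD117int, CD135+ and CD11c-, also MHC class II negative), had 2 arrays each. They were compared with limma across all genes. In pre-cDC against CDP, 2587 of all genes were called higher (14.2%) and 3427 lower (18.8%) at a Benjamini-Hochberg adjusted p under 0.05. Of the 360 genes higher in GM-CSF CD11c+ cells, 123 were called higher in pre-cDC (34.2%) and 56 lower (15.6%). Of the 140 genes lower in GM-CSF CD11c+ cells, 22 were called higher in pre-cDC (15.7%) and 46 lower (32.9%). The labels do not say that the arrays of a group came from separate animals, so these p-values measure the spread between the arrays only.

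Irf4 averaged 397 ± 56.9 units in pre-cDC and 11.8 ± 1.98 units in CDP (SD, n = 2 each; log2 difference 3.28, limma adjusted p = 1.8e-10). Zbtb46 averaged 402 ± 27.8 units in pre-cDC and 27.8 ± 8.90 units in CDP (SD, n = 2 each; log2 difference 2.87, limma adjusted p = 9.2e-09). Spib averaged 1549 ± 35.0 units in pre-cDC and 30.4 ± 1.24 units in CDP (SD, n = 2 each; log2 difference 4.66, limma adjusted p = 4e-12). For these 3 factors the arrays of the 2 groups did not overlap. With 2 arrays each this adds little, and the share of all genes without overlap was not counted. H2-Eb1 averaged 2663 ± 362 units in pre-cDC and 155 ± 37.8 units in CDP (SD, n = 2 each; log2 difference 3.86, limma adjusted p = 7.2e-10), although surface MHC class II was absent by the gate.

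Of the 28 maturation genes, 7 were called higher in pre-cDC and 5 lower. Over the 18193 genes, the same limma threshold gave 14.2% higher and 18.8% lower. The 17 higher and 0 lower in the cultures were counted by the 4-fold limit, so these counts rest on different rules. Whether the list differed from the other genes in pre-cDC was not tested. Ccr7 averaged 6.01 ± 0.52 units in pre-cDC and 45.6 ± 6.19 units in CDP (SD, n = 2 each; log2 difference -1.03, limma adjusted p = 3e-07), the opposite direction to the cultures. Fscn1 had a log2 difference of 0.19 (limma adjusted p = 0.087), and Ccl17 of 0.16 (limma adjusted p = 0.12), with intensities under 20 units on these 4 arrays. Nfil3, a factor of the dendritic cell list, was higher in GM-CSF CD11c+ cells, with 1484 units there, 461 in GM-CSF adherent cells and 170 in M-CSF adherent cells. It averaged 10.1 ± 1.62 units in pre-cDC and 440 ± 13.9 units in CDP (SD, n = 2 each; log2 difference -3.49, limma adjusted p = 1.8e-10). Ccnd1, lower in GM-CSF CD11c+ cells, was higher in pre-cDC than in CDP (1324 ± 65.7 and 652 ± 2.57 units; SD, n = 2 each; limma adjusted p = 2.3e-05).

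Across the 3 settings, 29 genes were higher in GM-CSF CD11c+ than in M-CSF adherent cells, in monocytes at 48 h than at 0 h, and in pre-cDC than in CDP, which is 8.06% of the 360 genes. Of all 18193 genes, 117 were higher in both monocytes and pre-cDC (0.643%). The 29 included Zbtb46, Irf4, Ciita, H2-Eb1, H2-Oa, H2-DMb2, P2ry10 and Cd86. Itgax is also among them, but CD11c took part in the sorts of the cultures, of pre-cDC and of CDP. Cells carrying CD11c were also removed when the monocytes were obtained, so all 3 settings were gated on it. For the genes lower in all 3 settings the number was 7 of 140 (5.0%), beside 68 of all genes lower in both monocytes and pre-cDC (0.374%), and they included Tk1, S100a8 and S100a9.

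**Figure D5:**
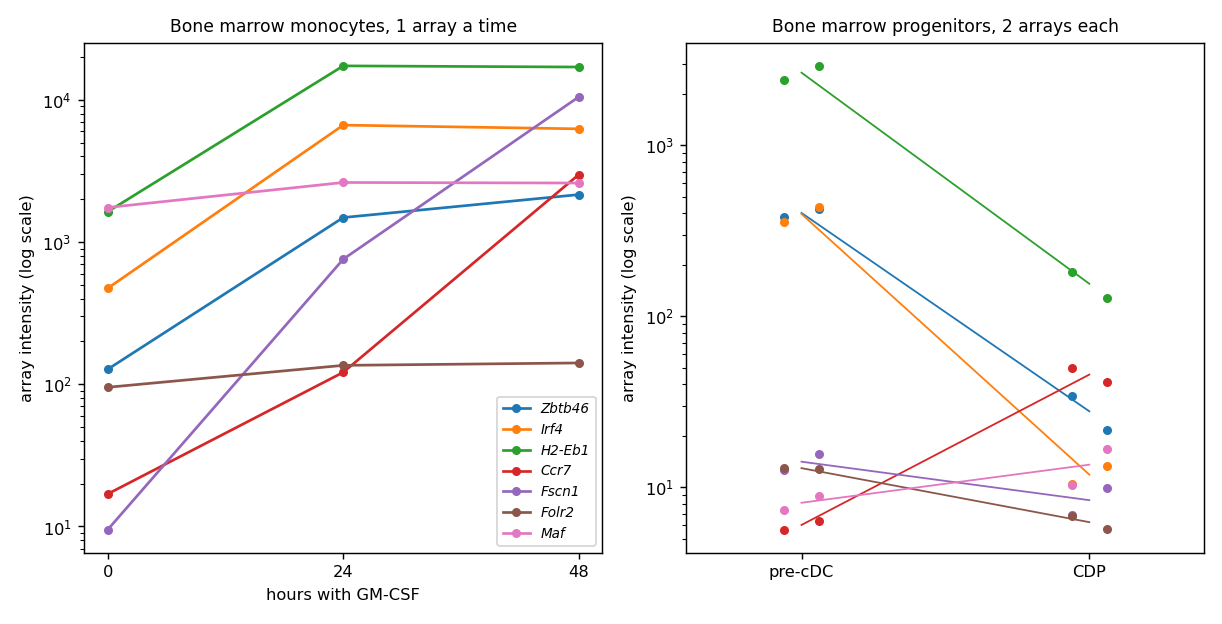
Array intensity on a log scale of 7 genes of the culture comparison in monocytes after 0, 24 and 48 h with GM-CSF (left, 1 array a time) and in pre-cDC and CDP (right, each point 1 of 2 arrays, lines joining the means). In monocytes Ccr7 and Fscn1 are far higher at 48 h than at 24 h; in pre-cDC Zbtb46, Irf4 and H2-Eb1 are above CDP and Ccr7 is below.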

How the data were processed

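RNA of 15 C57Bl/6 samples was labelled with biotin (3' IVT Express Kit, per the labels) and hybridised to one-colour Affymetrix arrays. The authors deposited a linear intensity per probe set and array. The sources used here do not give the background correction, probe summary or scaling. The values stand on separate scales for the cultures, the monocytes and the progenitors, so differences were formed within each.

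Of 45037 probe sets, 34945 carry 1 gene symbol, 932 several and 9160 none; only the first were used. For each gene the probe set brightest on average over the 3 culture arrays was taken, and 18032 of 18193 genes were matched to RefSeq symbols. Values were taken as log2(intensity + 32). Pre-cDC and CDP were compared with limma 3.58.1 in R 4.3.3 on the 8 progenitor arrays in 4 groups (two-sided, intensity trend, Benjamini-Hochberg over all genes, threshold 0.05). The fit was tested on simulated data. Tables used pandas 2.3.3 and numpy 2.4.6 in Python 3.11.15, and figures matplotlib 3.10.9.

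The comparison and the 40 gene lists (670 of 742 genes measured) were chosen with earlier results of these data known. A set of 308 genes was open to naming. It held the 12 largest counted differences in each direction, and up to 6 members of each list with the largest differences and its dim members. It also held Zbtb46, Ccr7, Folr2, Maf, the 3 cytokine receptor genes with Csf2rb2, and Itgax. The cell type markers were open to naming as well. The text gives values for only a part of these genes, and the choice among them followed no stated rule. Cd40, Nfil3, H2-Eb1 and the genes listed for all 3 settings were named after their values were seen. Not named were antibody segments, Xist, genes of the Y chromosome, Gm and LOC models, RIKEN clones and other expressed sequences. Alternatives were other pseudocounts, the median over probe sets, other scalings, filters and fold limits and, for limma, left-out arrays, a replicate block and other filters.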

Additional observations from a re-analysis of the deposited data

Results flagged for a closer look

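Probe sets without a single gene symbol took no part in the comparison of genes. Of 10092 such probe sets, 38 were at least 4-fold higher in GM-CSF CD11c+ cells than in M-CSF adherent cells (0.377%) and 24 were lower (0.238%), with log2 differences from -3.79 to 6.14. They lie above the array median on the brighter side, which is the reason they are given here, and they are not named.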

How the results depend on the processing

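The culture comparison has no repeat, so its limits are those of 2 arrays. With a limit of 2-fold, 988 genes were higher in GM-CSF CD11c+ cells and 775 lower, and with 8-fold 137 and 38. Other settings kept the counts within 1.5 times. With a pseudocount of 16 there were 437 higher and 187 lower genes, and with 64 there were 276 and 101. With the median over the probe sets of a gene there were 296 and 114, with quantile normalization 348 and 142, and with 1 common median 330 and 156. The share of higher genes among those counted was 67.9% to 73.7% under these 5 and under the filters on dim values, and 56.0% at 2-fold and 78.3% at 8-fold. Of the 308 genes open to naming, 0 changed direction under these 5. With the pseudocount of 64, 15 fell short of the limit, among them Zbtb46 (log2 difference 1.87), and 11 did so with the median over probe sets, among them Nr4a3 (0.28), Siglec1 (-0.84) and Socs2 (1.72).

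The labels do not say what the replicate numbers of the progenitor arrays mark. Deviations of same-numbered arrays correlated at -0.06 to 0.24, highest for CDP with pre-cDC and below 0 for CMP with GMP, so a pairing was not assumed. With a replicate block, 2698 genes were called higher in pre-cDC than in CDP and 3532 lower, against 2587 and 3427 without it, and no gene of the 64 followed changed its call. Restricted to genes above the median mean, 14 of the genes lower in GM-CSF CD11c+ cells were called higher in pre-cDC, in place of 22, as fewer genes were tested (9096). Leaving out 1 of the 4 pre-cDC and CDP arrays gave 2086 to 2268 higher and 2501 to 3102 lower genes.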

Other observations

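Some further groups were noticed among the counted genes after their values were seen, and are given as values. Of 4 enzymes that make serine or asparagine, 3 were counted as lower in GM-CSF CD11c+ cells and 1 was not, with no test of them as a group. Asns, asparagine synthetase, had 67.0 units in GM-CSF CD11c+ cells, 183 in GM-CSF adherent cells and 1549 in M-CSF adherent cells (log2 difference -4.0). Phgdh, the first enzyme of serine synthesis, had 55.1 units in GM-CSF CD11c+ cells, 109 in GM-CSF adherent cells and 595 in M-CSF adherent cells (log2 difference -2.85). Psat1, the enzyme after it, had 472 units in GM-CSF CD11c+ cells, 1185 in GM-CSF adherent cells and 2447 in M-CSF adherent cells (log2 difference -2.30). The last enzyme of the path, Psph, had 194 units in GM-CSF CD11c+ cells, 208 in GM-CSF adherent cells and 367 in M-CSF adherent cells and was not counted. Slc7a11, which carries cystine into the cell, went the other way, with 454 units in GM-CSF CD11c+ cells, 482 in GM-CSF adherent cells and 22.4 in M-CSF adherent cells (log2 difference 3.16).

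Aldh1a2, which makes retinoic acid, had 807 units in GM-CSF CD11c+ cells, 65.9 in GM-CSF adherent cells and 12.6 in M-CSF adherent cells (log2 difference 4.23). Of the enzymes that make lipid mediators, Ltc4s (leukotriene C4) had 812 units in GM-CSF CD11c+ cells, 217 in GM-CSF adherent cells and 48.0 in M-CSF adherent cells (log2 difference 3.40). Hpgds (prostaglandin D2) had 111 units in GM-CSF CD11c+ cells, 234 in GM-CSF adherent cells and 1413 in M-CSF adherent cells (log2 difference -3.34). Kitl, the ligand of the stem cell receptor Kit, had 24.3 units in GM-CSF CD11c+ cells, 20.4 in GM-CSF adherent cells and 648 in M-CSF adherent cells (log2 difference -3.59). None of these groups was compared with other groups of genes.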
